A study of Mus musculus with 12 samples.

Results

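The data described here are 8 of the 12 RNA-seq libraries of a study of mouse haemogenic endothelium: those collected at 12 h and at 24 h, chosen by the hour in their sample labels. They answer which effects of doxycycline (Dox) on gene expression grew, faded or turned round between these hours, over all genes. The 4 groups were cells kept without Dox for 12 h, with Dox for 12 h, without Dox for 24 h and with Dox for 24 h, each with 2 libraries and each Dox group at 1 µg/ml. All groups, the untreated ones included, came from the same embryonic stem cells, an Ainv18-derived line in which Dox switches on Sox7 (iSox7). FLK1-positive cells had been sorted from embryoid bodies, grown in liquid blast culture, and then kept in that culture with or without Dox. Every group carries the transgene, so in these 8 libraries an effect of the antibiotic itself and an effect of induced Sox7 cannot be told apart. The labels do not say that replicates were separate cultures, so the spread behind each p-value is that between libraries and may be technical. The series was made to ask how SOX7 acts on genes controlled by RUNX1.

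Haemogenic endothelium is the set of endothelial cells that turn into blood cells. During this endothelial-to-haematopoietic transition cells lose junctions and endothelial genes and gain blood genes, and the transcription factor RUNX1 is required for it. SOX7, a SOXF factor, is expressed in haemogenic endothelium and is turned off as blood cells emerge. In this culture the earliest blood cells include primitive erythroid cells, which carry embryonic globins, and myeloid precursors. Type I interferon signalling turns on antiviral genes, many of which carry a repeated GAAA element in their promoters.

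For each gene the log2 fold change of Dox over no Dox was taken at 12 h and at 24 h, and the change of the effect is the value at 24 h minus the value at 12 h. A change below 0 therefore means that the ratio of Dox to untreated cells was lower at 24 h. The same number is the course from 12 h to 24 h with Dox minus the course without Dox, so the effects and the courses share their libraries and are given side by side only. Errors are SE of the fit, and levels are CPM, counts scaled to the library total after its adjustment by TMM scaling. Tests were quasi-likelihood tests in edgeR, with Benjamini-Hochberg adjusted p-values over the 15347 genes tested of 41128 in the table, and called means an adjusted p under 0.05. Every adjusted p below comes from that test. Libraries without which a call ended are named beside the gene or its list. Total counts of the 8 libraries were 13846438 to 35250074, with 1 shallow library (at most 15429846 counts) and 1 deep library (at least 30682961) in each group. Sox7 was 5.98-fold higher with Dox at 12 h and 6.39-fold at 24 h (libraries below), as the labels have it. CPM are not corrected for gene length, so the level of a single gene is compared only within that gene. In CPM summed over a list, the genes with the most counts weigh most.

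The Dox effect changed in 185 of 15347 genes (1.21%), and 1645 genes had an unadjusted p under 0.05. It was lower at 24 h in 156 genes (1.02%) and higher in 29 (0.189%). Of the 65 called genes that changed by at least 1 on the log2 scale, 63 were lower and 2 higher. The median change over all tested genes was -0.0041. In 107 of the 185 genes the effect had the same sign at both hours and was larger at 24 h, which is called growing here: 96 of these were lower and 11 higher. In 5 genes the effect kept its sign and was smaller at 24 h, which is called fading, and in 73 it had opposite signs at the 2 hours. Of those 73 only Alas2 was called in opposite directions at both hours. The classes go by the estimates alone, also where an effect was near 0 and not called, so growing includes effects first called at 24 h. In all, 102 of the 185 genes had a Dox effect called at 24 h and not at 12 h, 22 at 12 h and not at 24 h, 56 at both and 5 at neither. For comparison, Dox itself changed 1038 genes at 12 h (6.76%) and 1690 at 24 h (11.0%). It raised 3.26% and lowered 3.51% of tested genes at 12 h, and raised 4.50% and lowered 6.52% at 24 h. From 12 h to 24 h, 12.2% rose and 10.2% fell without Dox, and 7.84% rose and 5.98% fell with Dox. These shares, with 1.02% and 0.189% for the change, are the background for each list below.

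**Figure D1:**
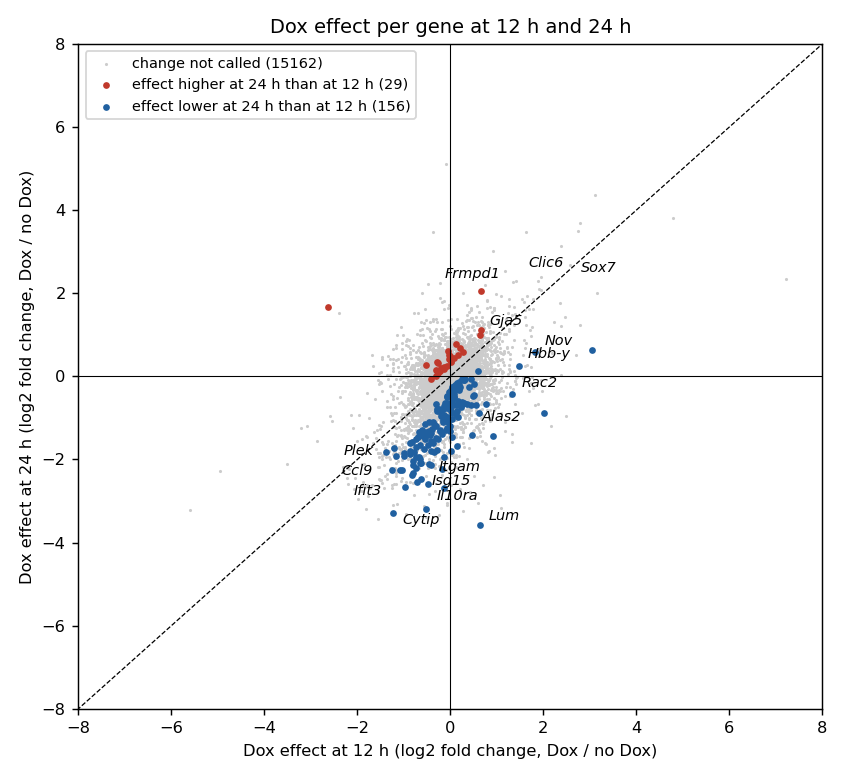
Log2 fold change of Dox over no Dox at 12 h (horizontal axis) and at 24 h (vertical axis) for each of the 15347 tested genes. The dashed line marks equal effects at both hours. Blue points (156 genes, lower at 24 h) lie below the line, many near 0 at 12 h and below -1 at 24 h, and red points (29 genes, higher at 24 h) lie above it. Clic6 and Sox7 lie next to the line.

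Genes of the interferon response, a list of 30 antiviral and signalling genes, had the lowest median change of the 29 gene lists examined. The effect became lower in 12 of the 30 (against 1.02% of all tested genes), higher in 0, and was not called in 18, with a median change of -1.21 against -0.0041 over all genes. At 12 h Dox lowered 5 of the 30 (background 3.51%), with a median effect of -0.29. At 24 h it lowered 29 of the 30 (background 6.52%), with a median of -2.01. Untreated cells raised 29 of the 30 from 12 h to 24 h (background 12.2%, median 2.00), and cells with Dox raised 12 (background 7.84%, median 0.43). The summed level of the list was 210.7 to 226 CPM in the untreated libraries at 12 h, 176 to 179.9 CPM with Dox at 12 h, 570.3 to 608 CPM in untreated libraries at 24 h, and 221 to 233 CPM with Dox at 24 h. So the 4 libraries at 12 h and the Dox libraries at 24 h lay close together, and only the untreated libraries at 24 h stood apart.

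Isg15 (ENSMUSG00000035692, chromosome 4, 156199424 to 156200818, minus strand, GRCm38) encodes a ubiquitin-like protein that is attached to other proteins in the antiviral response. It stood at 4.77 and 3.91 CPM in untreated cells at 12 h, 2.79 and 2.63 with Dox at 12 h, 23.3 and 25.3 untreated at 24 h, and 5.16 and 3.16 with Dox at 24 h. The Dox libraries were below the untreated ones at both hours without overlap, and the gap was far wider at 24 h. The log2 effect was -0.63 ± 0.21 at 12 h, which was not called (adjusted p = 0.077), and -2.47 ± 0.17 at 24 h, and the change was -1.85 ± 0.28 (95% interval -2.42 to -1.28, adjusted p = 0.00028). Rsad2, which encodes the antiviral enzyme viperin, measured 16.95 and 17.1 CPM untreated and 12.0 and 8.92 CPM with Dox at 12 h. It then measured 58.1 and 64.7 CPM untreated and 13.7 and 15.7 CPM with Dox at 24 h. Its effect went from -0.66 ± 0.13 to -2.09 ± 0.11, a change of -1.43 ± 0.17 (adjusted p = 6.7e-06). Again the Dox libraries were lower at both hours, and at 24 h they were still below the untreated level of 12 h.

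Ifit3, an RNA-response protein of the IFIT family, measured 3.56 and 3.48 CPM untreated and 1.76 and 1.80 with Dox at 12 h. At 24 h it measured 20.6 and 21.4 CPM untreated and 3.38 and 3.16 CPM with Dox, and the effect changed by -1.69 ± 0.27 (adjusted p = 0.00047). Its family member Ifit1 fell with Dox at both hours (-1.95 and -2.77), and its change of -0.82 ± 0.28 was not called (adjusted p = 0.19). IFIT genes are similar copies, so reads may be split between them. The RNA sensor Ddx58 (RIG-I) changed by -1.18 ± 0.16 and its relative Ifih1 (MDA5) by -1.17 ± 0.26. The call of Ifih1 ended without untreated 12 h replicate 2, Dox 12 h replicate 1 or untreated 24 h replicate 2. Xaf1, an interferon-induced apoptosis factor, changed by -1.80 ± 0.30, and Parp14, an ADP-ribosyltransferase, by -1.49 ± 0.21.

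Among the other called members, Cmpk2, a nucleotide kinase, changed by -1.16 ± 0.20 and Ifit2 by -0.84 ± 0.15. The count of 12 called members was 11 to 14 when any of the 8 libraries was left out. Members below 1 CPM at 12 h, such as Mx1, Oas1a and Oas2, had changes of -3.21 ± 0.93, -2.91 ± 0.86 and -3.92 ± 1.40 and were not called. Oas3 stood below 1 CPM in every library and had 0 counts in both Dox libraries at 12 h, so no fold is given for it.

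Interferon-inducible genes outside the list were among the called genes too. Slfn5, a Schlafen family gene, changed by -1.18 ± 0.15, Irgm1, an immunity GTPase, by -1.15 ± 0.14, and Rnf213, a large ubiquitin ligase, by -0.68 ± 0.08. Rnf213 measured 79.3 and 78.0 CPM untreated and 70.4 and 66.6 CPM with Dox at 12 h, then 199 and 203 CPM untreated and 109 and 110.1 CPM with Dox at 24 h. It rose in both arms, by 1.36 ± 0.06 without Dox and by 0.67 ± 0.06 with Dox. Schlafen and immunity GTPase genes also lie in families of similar copies.

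**Figure D2:**
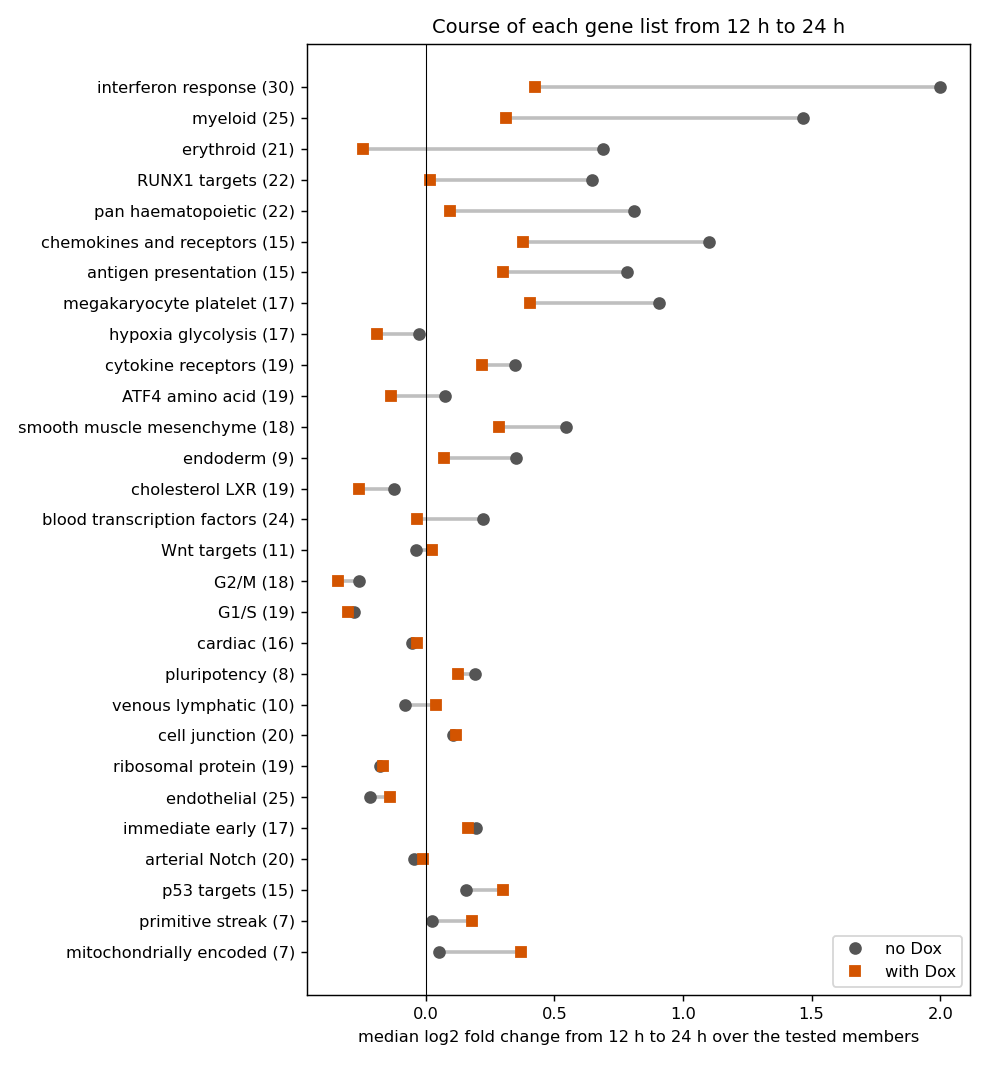
Median log2 fold change from 12 h to 24 h over the tested members of each gene list, without Dox (grey circles) and with Dox (orange squares), with the number of members in brackets. The untreated point lies far to the right for the interferon (2.00 against 0.43), myeloid (1.47 against 0.31) and pan-haematopoietic lists (0.81 against 0.10), and for the erythroid list the points lie on opposite sides of 0 (0.69 against -0.24).

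Promoter stretches of 3 called interferon genes are printed because they show this repeated GAAA element, known from interferon-inducible promoters. They come from RefSeq (build GRCm38.p6), where 21 of the 30 listed genes had a promoter, and are written 5′ to 3′ along the gene, with each match in capitals. The motif searched was GAAA, any 2 bases and GAAA again, which reads TTTC, any 2 bases and TTTC on the other strand.
Rsad2 (chr12:26456503-26456622, minus strand): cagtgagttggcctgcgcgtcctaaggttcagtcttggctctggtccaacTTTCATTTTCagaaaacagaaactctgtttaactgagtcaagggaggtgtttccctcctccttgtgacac
Isg15 (chr4:156200827-156200946, minus strand): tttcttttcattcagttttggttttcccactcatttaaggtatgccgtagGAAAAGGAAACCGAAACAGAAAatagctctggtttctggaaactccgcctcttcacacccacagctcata
Ifit3 (chr19:34583323-34583442, plus strand): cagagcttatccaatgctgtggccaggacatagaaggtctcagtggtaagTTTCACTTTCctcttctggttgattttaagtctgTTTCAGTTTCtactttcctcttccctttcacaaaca
In Isg15, 3 matches overlap in 1 run of capitals, and Ifit3 holds 2 separate ones. The motif was searched on both strands of the 300 bases from 250 before to 50 after each start. It was present in 11 of 25 promoters of the interferon list (44%, 95% Wilson interval 26.7 to 62.9), in 23 of 154 promoters of genes whose effect became lower (14.9%, 10.2 to 21.4) and in 0 of 26 promoters of genes whose effect became higher, where the 95% Wilson interval reaches 12.9%. It was in 402 of 13880 promoters of tested genes (2.9%) and in 3.44% of all 32851 promoters of the table. The 23 promoters include those of the list's called genes and not of its other members. Some genes had more than 1 promoter (154 from 120 genes, 25 from 21). The intervals count each promoter as independent and may be too narrow. Matches are a description of letters in these windows only.

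In bulk RNA fewer cells of a type and less RNA per cell cannot be told apart, and this holds for every group of blood genes below. The myeloid list of 25 genes rose from 191 to 194 CPM in the untreated libraries at 12 h to 319 to 329 CPM at 24 h, while the Dox libraries held 141 to 153 CPM at 12 h and 139 to 148 CPM at 24 h. Myeloid markers thus moved with the interferon genes, and their part in that result was not tested. No tested member of the list was at 0 in every library, and Elane, Ctsg and Ly86 did not pass the filter on low counts. Untreated cells raised 21 of the 25 and lowered 1, Mrc1 (background 12.2% and 10.2%). Cells with Dox raised 8 and lowered 2 (background 7.84% and 5.98%), so the falls in either arm were not above or were near the background. The effect became lower in 6 members (Fcer1g, Itgam, Fcgr3, Ncf1, Cx3cr1 and Mpo; background 1.02%) and higher in 0, with a median change of -0.93. DESeq2 called 3 of them lower.

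Itgam, the integrin CD11b of myeloid cells, measured 4.91 and 4.39 CPM untreated and 3.24 and 3.53 with Dox at 12 h. The 24 h values were 20.1 and 20.0 CPM untreated and 4.63 and 4.74 CPM with Dox. The untreated libraries rose by 2.13 ± 0.17 and the Dox libraries by 0.48 ± 0.20, which was not called (adjusted p = 0.12), giving a change of -1.65 ± 0.27 (adjusted p = 0.00053). Cx3cr1, a chemokine receptor of monocytes and macrophages, rose in both arms, from 4.42 and 4.39 to 19.4 and 19.7 CPM without Dox and from 2.63 and 3.14 to 6.24 and 6.10 CPM with Dox. Its change of -1.02 ± 0.25 was called (adjusted p = 0.037) but lost the call whichever library was left out. Mpo, the granule enzyme myeloperoxidase, was lower with Dox at 12 h (-0.87 ± 0.12) and more so at 24 h (-1.60 ± 0.12), and the call of its change held only without untreated 12 h replicate 1 or Dox 12 h replicate 2. The count of 6 fell to 1 without Dox 12 h replicate 1, to 2 without untreated 12 h replicate 2 or untreated 24 h replicate 2, and to 3 without untreated 24 h replicate 1 or Dox 24 h replicate 2. Lyz2, lysozyme, went against the list at 12 h, where Dox raised it (0.73, adjusted p = 0.0013), and its change of -0.60 ± 0.19 was not called (adjusted p = 0.16).

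Of the called genes whose mean log2 CPM was 1 or more, the receptor genes Il10ra and Igsf6 had the lowest changes. Il10ra, the interleukin-10 receptor chain, measured 2.99 and 1.82 CPM untreated and 1.76 and 1.35 with Dox at 12 h, and 7.79 and 6.40 untreated and 1.25 and 1.01 with Dox at 24 h. Its change of -2.10 ± 0.41 (adjusted p = 0.0052) lost the call without untreated 12 h replicate 2 or Dox 12 h replicate 1. Igsf6 changed by -2.05 ± 0.39 and Fcer1g, the common chain of Fc receptors, by -1.82 ± 0.35, and both lost the call without Dox 12 h replicate 1. Il10ra belongs to a list of 19 cytokine receptors, of which it and Csf2rb became lower and 0 became higher, and of which 0 were called without untreated 12 h replicate 2 and 1 without Dox 12 h replicate 1. Of 15 chemokines and their receptors 4 became lower: Ccl3, Ccl9, Ccl6 and Cx3cr1. Ccl9 was already lower with Dox at 12 h (52.3 and 43.4 against 19.2 and 20.8 CPM) and fell further behind at 24 h (120.3 and 126.5 against 29.1 and 21.4 CPM), a change of -1.003 ± 0.16 (adjusted p = 0.00038). The count of 4 was 1 or 2 whenever a library was left out. Of 15 antigen presentation genes 0 were called either way by edgeR, with a median change of -0.36. At an unadjusted p under 0.05 by edgeR 6 were lower, against 1645 of all 15347 tested genes in either direction. DESeq2 called 0 of them and limma on RPKM 1. By time, untreated cells raised 9 and cells with Dox raised 5.

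The pan-haematopoietic list holds 22 tested genes of the leukocyte membrane and cytoskeleton. The effect became lower in 7 and higher in 0, with a median change of -0.60. DESeq2 called 7 of the list lower and limma on RPKM 4. Dox lowered 8 and raised 1 at 12 h (Rac2), and lowered 20 at 24 h. Untreated cells raised 16 of the 22 and cells with Dox raised 2. Coro1a, an actin regulator of leukocytes, measured 7.83 and 7.69 CPM untreated and 5.73 and 5.84 with Dox at 12 h, then 20.2 and 21.5 untreated and 6.70 and 4.88 with Dox at 24 h. It rose by 1.43 ± 0.14 without Dox, while with Dox the course was 0.05 ± 0.16. The change was -1.38 ± 0.21 (adjusted p = 0.00037). Laptm5, a lysosomal protein of blood cells, went from 45.9 and 43.7 to 76.4 and 77.3 CPM untreated and from 42.0 and 34.65 to 40.2 and 39.8 CPM with Dox. Plek, the platelet and leukocyte protein pleckstrin, was lower with Dox at both hours and more so at 24 h (-1.20 ± 0.06 and -1.71 ± 0.06), a change of -0.51 ± 0.09 (adjusted p = 0.0013). Nckap1l changed by -1.50 ± 0.32, a call that ended without either untreated 24 h library, untreated 12 h replicate 2 or Dox 12 h replicate 1. The count of 7 was 4 without untreated 12 h replicate 2 and 5 to 10 without each of the others. Ptprc, the pan-leukocyte marker CD45, had a change of -1.06 ± 0.28 that was not called (adjusted p = 0.058).

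Rac2, a blood-specific small GTPase, turned round. It measured 2.42 and 2.42 CPM untreated and 6.06 and 6.16 with Dox at 12 h, then 7.65 and 6.49 untreated and 5.19 and 5.24 with Dox at 24 h. Dox libraries were higher at 12 h and lower at 24 h, without overlap at either hour. The effect went from 1.33 ± 0.21 (adjusted p = 7.4e-05) to -0.42 ± 0.19, which was not called (adjusted p = 0.18), and the change was -1.75 ± 0.28 (adjusted p = 0.0005). The untreated cells rose by 1.52 ± 0.21 and the cells with Dox had a course of -0.23 ± 0.19.

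**Figure D3:**
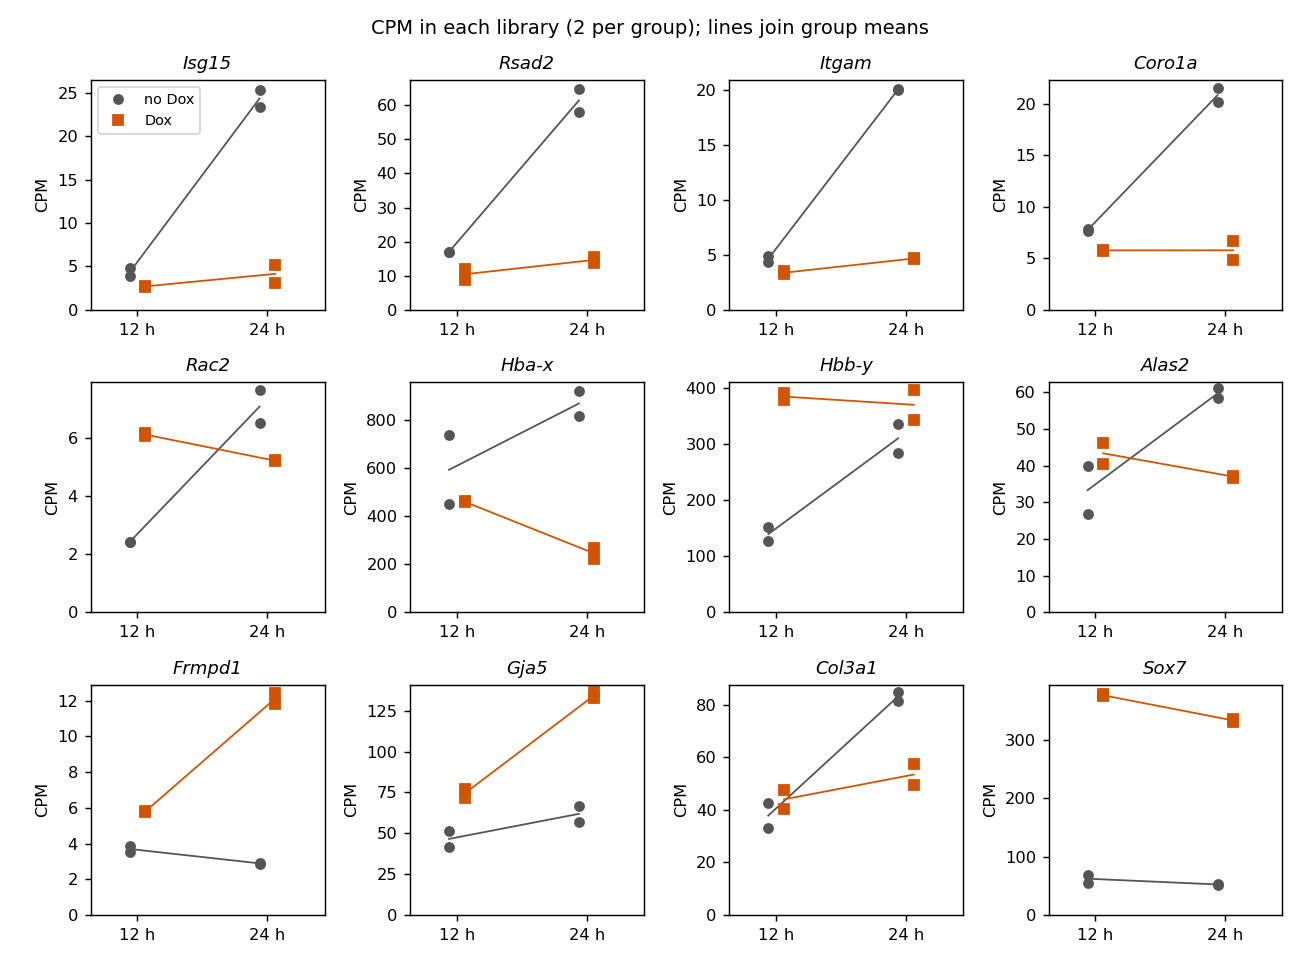
CPM in each of the 8 libraries for 12 genes, without Dox (grey circles) and with Dox (orange squares) at 12 h and 24 h, with lines between the means of 2 libraries and axes from 0. Isg15, Rsad2, Itgam and Coro1a rise without Dox and stay near their 12 h level with Dox. Rac2 and Alas2 cross, Hbb-y without Dox comes up towards the Dox libraries, Frmpd1 and Gja5 separate upwards, and Sox7 stays apart.

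RUNX1 itself had no called change. Runx1 measured 173 and 166 CPM untreated and 160.3 and 152 with Dox at 12 h, then 210.3 and 203 untreated and 184 and 183 with Dox at 24 h. The Dox libraries were lower at both hours without overlap, but neither effect was called (-0.11 ± 0.06 and -0.17 ± 0.06, adjusted p = 0.27 and 0.053), and the change was -0.06 ± 0.08 (95% interval -0.22 to 0.11, adjusted p = 0.88). Of 22 genes listed as RUNX1 targets, 6 became lower (Rac2, Coro1a, Laptm5, Mpo, Csf2rb and Ikzf1), 0 higher and 16 were not called, with a median change of -0.64. DESeq2 called 5 of the list lower and limma on RPKM 4. Dox lowered 8 and raised 1 at 12 h, and lowered 18 and raised 1 (Gfi1; background for rises 4.50%) at 24 h. Untreated cells raised 15 of the 22, with a median of 0.64, while cells with Dox raised 3 and lowered 3 (background for falls 5.98%), with a median of 0.02. Rac2, Coro1a and Laptm5 are among the pan-haematopoietic genes too, and Mpo among the myeloid ones, so the lists are not independent. The count of 6 was 3 without untreated 12 h replicate 2 and 10 without untreated 12 h replicate 1.

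Csf2rb, the shared receptor chain for interleukin-3 and GM-CSF, measured 46.2 and 40.2 CPM untreated and 26.0 and 27.7 with Dox at 12 h, then 85.4 and 86.3 untreated and 36.0 and 31.2 with Dox at 24 h. The effect went from -0.68 ± 0.09 to -1.34 ± 0.09 (change -0.66 ± 0.13, adjusted p = 0.0045). The call ended without untreated 12 h replicate 2. Ikzf1, the lymphoid and myeloid transcription factor Ikaros, went from -0.46 ± 0.09 to -1.09 ± 0.09 (change -0.62 ± 0.12, adjusted p = 0.0046), since it rose without Dox (0.27 ± 0.08) and fell with Dox (-0.35 ± 0.09). Its call ended without untreated 12 h replicate 2, Dox 12 h replicate 1 or untreated 24 h replicate 2. Gfi1 and Gfi1b, repressors that act below RUNX1 in silencing endothelial genes, had effects of opposite sign. Gfi1 measured 6.69 and 6.96 CPM untreated and 8.05 and 9.30 with Dox at 12 h, and 4.43 and 5.64 untreated and 8.83 and 7.97 with Dox at 24 h. It was higher with Dox at 24 h (0.71 ± 0.16, adjusted p = 0.0029), Gfi1b was lower (-0.65 ± 0.14, adjusted p = 0.0016), and neither change was called (0.39 ± 0.23 and -0.56 ± 0.20, adjusted p = 0.57 and 0.23). Itga2b, the early blood marker CD41, had a change of -0.33 ± 0.10 that was not called (adjusted p = 0.11). Among 24 blood transcription factors 2 became lower, Ikzf1 and the erythroid factor Klf1, and 0 higher, with a median change of -0.10. None of the 24 was called without untreated 12 h replicate 2, Dox 12 h replicate 1 or untreated 24 h replicate 2, and 1 was called without untreated 24 h replicate 1 or Dox 24 h replicate 2.

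Of 21 erythroid genes 11 became lower and 0 higher, with a median change of -0.85. DESeq2 called 7 of the list lower and limma on RPKM 4. Untreated cells raised 16 and lowered 0, whereas cells with Dox raised 2 and lowered 7. Dox lowered 9 of the 21 and raised 2 at 12 h (background for rises 3.26%), and lowered 19 and raised 1 at 24 h. The untreated 12 h libraries differed between themselves, with a summed level of 2651 CPM in replicate 1 and 1643 CPM in replicate 2, against 2257 to 2395 CPM with Dox at 12 h, 2805 to 3109 CPM untreated at 24 h and 1446 to 1749 CPM with Dox at 24 h. The count of 11 was 18 without untreated 12 h replicate 1, and 7 without untreated 12 h replicate 2, untreated 24 h replicate 1 or Dox 24 h replicate 2. Some globin genes are similar copies, so reads may be shared among those.

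Hba-x, the embryonic zeta globin (ENSMUSG00000055609, chromosome 11, 32276400 to 32278116, plus strand, GRCm38), measured 735 and 449 CPM untreated and 457 and 463 with Dox at 12 h. At 24 h it measured 921 and 814 CPM untreated and 269 and 220.5 with Dox. The 12 h groups overlapped and the 24 h groups did not. It rose without Dox (0.56 ± 0.11) and fell with Dox (-0.90 ± 0.12), so the effect went from -0.36 ± 0.11, not called (adjusted p = 0.054), to -1.82 ± 0.12, a change of -1.46 ± 0.16 (adjusted p = 2.7e-06). Its adult-type neighbour Hba-a1 measured 47.3 and 31.55 CPM untreated and 21.2 and 23.03 with Dox at 12 h, then 76.4 and 63.9 untreated and 16.3 and 15.2 with Dox at 24 h, a change of -1.33 ± 0.17 (adjusted p = 3.2e-05). The adult beta globin Hbb-bs changed by -1.81 ± 0.31 and the embryonic Hbb-bh1 by -0.94 ± 0.19. Hbb-bh1 lost the call without untreated 24 h replicate 1 or Dox 24 h replicate 2.

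Hbb-y, the embryonic epsilon globin, behaved differently from these in its values: Dox raised it at 12 h and the effect faded. It measured 152 and 126 CPM untreated and 390.3 and 378 with Dox at 12 h, then 335 and 284 untreated and 396 and 343 with Dox at 24 h. All Dox libraries were above all untreated ones at each hour, but at 24 h only narrowly. The effect went from 1.48 ± 0.08 (adjusted p = 3.6e-14) to 0.26 ± 0.08 (adjusted p = 0.019), a change of -1.21 ± 0.11 (adjusted p = 7.3e-08). The untreated cells rose by 1.16 ± 0.08 and the cells with Dox had a course of -0.05 ± 0.07. Alas2, the erythroid enzyme that starts haem synthesis, was called in both directions: it measured 39.8 and 26.8 CPM untreated and 46.2 and 40.4 with Dox at 12 h, then 61.0 and 58.3 untreated and 36.7 and 37.3 with Dox at 24 h. Its effect went from 0.44 ± 0.11 (adjusted p = 0.012) to -0.69 ± 0.11 (adjusted p = 1.9e-05). The 12 h values nearly met and the 24 h values were well apart. Sptb, beta spectrin of the membrane skeleton, had an effect of 0.03 at 12 h, which was not called, and was lower with Dox at 24 h (-0.65), with a change of -0.69 ± 0.12. Trim10 changed by -1.52 ± 0.36 and kept the call only without untreated 12 h replicate 1 or Dox 12 h replicate 2. Of 17 megakaryocyte and platelet genes 1 became lower, P2ry1.

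Other effects that faded were few. Nov, a matricellular CCN protein also called Ccn3, measured 1.64 and 2.03 CPM untreated and 6.85 and 6.61 with Dox at 12 h, then 2.50 and 3.52 untreated and 4.79 and 4.59 with Dox at 24 h. The Dox libraries stayed above the untreated ones and came closer, with effects of 1.83 ± 0.22 and 0.58 ± 0.21 and a change of -1.25 ± 0.31 (adjusted p = 0.034). Its call held only without Dox 12 h replicate 2 or untreated 24 h replicate 1. P2ry1, an ADP receptor of platelets and endothelium, went from 51.1 and 51.1 CPM untreated and 80.3 and 74.8 with Dox at 12 h to 54.6 and 58.1 untreated and 61.7 and 61.3 with Dox at 24 h. Here the cells with Dox fell (-0.34 ± 0.06) and the untreated course was 0.15 ± 0.07, which was not called (change -0.49 ± 0.09, adjusted p = 0.0038). Its call ended without Dox 12 h replicate 1 or untreated 24 h replicate 2. Gcsh, a subunit of the mitochondrial glycine cleavage system, was the 1 gene whose lowering by Dox faded. It measured 144 and 147 CPM untreated and 105 and 115 with Dox at 12 h, then 109 and 110.2 untreated and 106 and 103 with Dox at 24 h, and the change of 0.35 ± 0.09 (adjusted p = 0.046) held only without Dox 12 h replicate 2. The fifth gene, Myh7b, a myosin heavy chain, is named only because the count is 5. It stood below 3 CPM in every library, its effect went from 3.04 to 0.63, and its call ended without untreated 12 h replicate 2, Dox 12 h replicate 1, untreated 24 h replicate 2 or Dox 24 h replicate 2.

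Several genes outside the blood lists had no called effect at 12 h and were lower with Dox at 24 h. Kctd12, an auxiliary subunit of GABA-B receptors, measured 111 and 112 CPM untreated and 122 and 107 with Dox at 12 h, then 154 and 166 untreated and 91.2 and 83.1 with Dox at 24 h. The 12 h libraries were mixed and the 24 h libraries apart, since the gene rose without Dox (0.52 ± 0.07) and fell with Dox (-0.39 ± 0.07), a change of -0.91 ± 0.09 (adjusted p = 7.5e-07). Smox, spermine oxidase, changed by -0.99 ± 0.14 and Dlk1, a non-canonical Notch ligand, by -0.82 ± 0.12. Ctsc, the lysosomal protease that activates granule enzymes, was already lower with Dox at 12 h (-0.31 ± 0.07, adjusted p = 0.0031) and went from 62.0 and 61.3 to 121 and 127 CPM untreated and from 50.6 and 48.7 to 53.6 and 55.4 CPM with Dox, a change of -0.88 ± 0.09 (adjusted p = 7.5e-07). Sat1, the acetylase of the same polyamine route as Smox, moved the other way: it stood at 169 and 169 CPM untreated and 160 and 174 with Dox at 12 h, and 170.4 and 168 untreated and 224 and 226 with Dox at 24 h, a change of 0.43 ± 0.10 (adjusted p = 0.029). It lost the call in 6 of the fits without 1 library, all but those without untreated 12 h replicate 1 or Dox 12 h replicate 2.

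In 19 genes of amino acid metabolism under the stress factor ATF4, 3 became lower and 0 higher, with a median change of -0.22. Trib3, a pseudokinase that restrains this response, measured 13.3 and 10.96 CPM untreated and 15.7 and 14.4 with Dox at 12 h, then 17.4 and 16.9 untreated and 10.4 and 11.4 with Dox at 24 h. It rose without Dox (0.53 ± 0.12) and fell with Dox (-0.49 ± 0.12), a change of -1.02 ± 0.18 (adjusted p = 0.0013). Mthfd2, a mitochondrial folate enzyme, fell with Dox (-0.43 ± 0.07) with an untreated course of 0.02 ± 0.07, and changed by -0.45 ± 0.10. Vldlr changed by -0.66 ± 0.17. The count of 3 was 1 without any of 5 libraries: untreated 12 h replicate 2, Dox 12 h replicate 1, either untreated 24 h library or Dox 24 h replicate 2. Among 19 cholesterol genes Dhcr7 and Lss, enzymes of the synthesis route, became lower (-0.39 ± 0.09 and -0.34 ± 0.08) and 0 higher. The list was lowered in 13 members by time with Dox and in 7 without (background 10.2%). Both lost the call without Dox 12 h replicate 1, untreated 24 h replicate 1 or Dox 24 h replicate 2, Dhcr7 also without untreated 24 h replicate 2, and Lss also without untreated 12 h replicate 2 or Dox 24 h replicate 1. Among 17 genes of hypoxia and glycolysis Ndrg1 became lower (-0.57 ± 0.12), with a call that ended without untreated 12 h replicate 2, untreated 24 h replicate 1 or Dox 24 h replicate 2.

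Genes whose effect became higher were fewer, and their changes were mostly small. Some of them had an effect near 0 at 12 h that was not called, such as Lrp2 (0.003 ± 0.06) and Fat1 (0.01 ± 0.05). Frmpd1, a scaffold protein with FERM and PDZ domains, measured 3.85 and 3.54 CPM untreated and 5.81 and 5.78 with Dox at 12 h, then 2.86 and 2.91 untreated and 11.8 and 12.4 with Dox at 24 h. The Dox libraries were higher at both hours without overlap, and further apart at 24 h. The effect went from 0.66 ± 0.17 to 2.06 ± 0.17, a change of 1.40 ± 0.24 (95% interval 0.90 to 1.89, adjusted p = 0.0014), and of the 29 genes with a higher effect it alone kept the call in all 16 alternative fits. Lrp2, the endocytic receptor megalin, had 104.5 and 110.3 CPM untreated and 106 and 110.2 with Dox at 12 h, then 80.3 and 82.3 untreated and 110.4 and 121 with Dox at 24 h, a change of 0.50 ± 0.09 (adjusted p = 0.0014). It fell without Dox (-0.40 ± 0.06), while the course with Dox was 0.10 ± 0.06. Rnd2, a small GTPase, had effects of 0.21 ± 0.06 and 0.68 ± 0.07, and its call ended without untreated 12 h replicate 2.

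Of 20 arterial and Notch genes 2 became higher (background 0.189%) and 1 lower, with a median change of 0.11. Gja5, the arterial connexin 40, measured 41.8 and 51.3 CPM untreated and 71.7 and 77.0 with Dox at 12 h, then 57.1 and 66.7 untreated and 133 and 136 with Dox at 24 h. It rose in both arms, by 0.40 ± 0.08 without Dox and by 0.86 ± 0.08 with Dox, and the effect went from 0.65 ± 0.08 to 1.11 ± 0.08 (change 0.46 ± 0.12, adjusted p = 0.042). Gja4, connexin 37, had the same effect at 12 h (0.65 ± 0.06) and 0.99 ± 0.06 at 24 h, but there the untreated cells fell (-0.41 ± 0.06) and the course with Dox was -0.07 ± 0.06 (change 0.35 ± 0.09, adjusted p = 0.034). Nrp1, a VEGF co-receptor, became lower (-0.30 ± 0.07). The calls of all 3 ended without any of untreated 12 h replicate 2, Dox 12 h replicate 1, untreated 24 h replicate 1 or Dox 24 h replicate 2. Gja4 and Nrp1 also lost it without untreated 24 h replicate 2, Gja5 and Nrp1 without Dox 24 h replicate 1, and Gja5 was not called by DESeq2. Ptprb, the endothelial phosphatase VE-PTP, was higher with Dox at 24 h only (0.07 ± 0.06 and 0.44 ± 0.06, change 0.37 ± 0.08). Fat1, a giant cadherin, had effects of 0.01 ± 0.05 and 0.35 ± 0.05 (change 0.33 ± 0.07). Both lost the call without untreated 12 h replicate 2, Dox 12 h replicate 1, either untreated 24 h library or Dox 24 h replicate 2. Cd24a, a surface glycoprotein, changed by 0.35 ± 0.07 and lost the call without untreated 12 h replicate 2, Dox 12 h replicate 1 or untreated 24 h replicate 1. Ctla2a (0.55 ± 0.12) and Syt13, a synaptotagmin (0.64 ± 0.16), were also not called by DESeq2 and lost the call in 5 of the fits without 1 library.

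A stretch before a RefSeq start of Fat1 is shown because it holds the SOX core AACAAT (other strand ATTGTT), with the match in capitals. Fat1 was higher with Dox at 24 h and was not called at 12 h. The stretch lies inside the gene as placed in the count data (chromosome 8, 44935447 to 45052257, plus strand), and not before its first base.
Fat1 (chr8:44949958-44950077, plus strand): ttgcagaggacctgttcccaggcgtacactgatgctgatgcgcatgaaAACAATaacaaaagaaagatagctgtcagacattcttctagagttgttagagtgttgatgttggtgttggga
This core was in 2 of 26 promoters of genes with a higher effect (7.69%) and in 12 of 154 with a lower effect (7.79%), against 816 of 13880 promoters of tested genes (5.88%) and 10.7% of all promoters. The RUNX core TGTGGT (other strand ACCACA) was in 7.69% and 16.9%, against 12.3% of tested genes, and in 0 of 21 promoters of the listed RUNX1 targets (95% Wilson interval to 15.5%). The GATA core AGATAA (other strand TTATCT) was in 5 of 16 erythroid promoters (31.2%, 95% Wilson interval 14.2 to 55.6), against 6.48% of tested genes, and in 6.49% of promoters with a lower effect. The intervals for 26 promoters are wide (2.14 to 24.1% for AACAAT), and these too count each promoter of a gene as independent.

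Sox7, the induced gene, had an effect that stayed. It measured 55.6 and 68.8 CPM untreated and 379 and 376 with Dox at 12 h, then 52.5 and 52.1 untreated and 337 and 331 with Dox at 24 h. The effect was 2.58 ± 0.07 at 12 h and 2.68 ± 0.07 at 24 h, a change of 0.10 ± 0.09 (95% interval -0.09 to 0.28, adjusted p = 0.78). The counts do not separate the transgene from the resident gene. In all, 80 genes were changed at least 2-fold by Dox at both hours in the same direction. Of these, 7 changed between the hours, all by growing, and 0 faded (edgeR). For 3 of the 80 the 95% interval of the change lay within 0.5 of 0: Sox7, the chloride channel family gene Clic6 (1.92 ± 0.10 and 2.10 ± 0.10) and the potassium channel Kcnj2 (-1.21 ± 0.15 and -1.19 ± 0.14). For the others the data do not show that the effect stayed the same.

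Endothelial genes had effects at both hours and no called change. Of 25 genes on the list 0 were called by edgeR, DESeq2 or limma, with changes from -0.15 to 0.32 and a median of 0.07. By edgeR 4 were higher at an unadjusted p under 0.05, a threshold that 1645 of all 15347 tested genes passed in either direction. Dox raised 10 and lowered 3 at 12 h (background 3.26% and 3.51%). At 24 h it raised 13 and lowered 2 (background 4.50% and 6.52%), the latter near the background. Time lowered 15 without Dox (background 10.2%) and 10 with Dox (background 5.98%). Cdh5, VE-cadherin, measured 529.5 and 581 CPM untreated and 723 and 775 with Dox at 12 h, then 516 and 504 untreated and 696 and 741 with Dox at 24 h, effects of 0.43 ± 0.05 and 0.50 ± 0.05 and a change of 0.07 ± 0.08 (95% interval -0.09 to 0.22). The other SOXF genes, Sox17 and Sox18, had changes of 0.23 ± 0.10 and -0.10 ± 0.09 that were not called (adjusted p = 0.38 and 0.76). Of 20 cell junction genes and 10 venous and lymphatic genes 0 were called on the change by edgeR, DESeq2 or limma, and 3 of each passed an unadjusted p under 0.05 by edgeR.

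Of 18 smooth muscle and mesenchyme genes 5 became lower and 0 higher, with a median change of -0.20: Lum, Col3a1, Postn, Col1a2 and Col1a1. DESeq2 called 4 of the list lower and limma on RPKM 0. Col3a1, a fibrillar collagen, measured 42.7 and 33.0 CPM untreated and 47.7 and 40.4 with Dox at 12 h, then 85.2 and 81.5 untreated and 57.3 and 49.7 with Dox at 24 h. The 12 h groups overlapped, and at 24 h the untreated libraries were higher. The untreated cells rose by 1.16 ± 0.10, the course with Dox was 0.28 ± 0.10 (adjusted p = 0.055), and the change was -0.88 ± 0.14 (adjusted p = 0.00037). Postn, the matrix protein periostin, rose in both arms (0.94 ± 0.07 and 0.39 ± 0.07), as did Col1a1 (0.65 ± 0.05 and 0.29 ± 0.05). Col1a1 stood at 1662 to 2721 CPM in untreated cells. Lum, a small proteoglycan below 3 CPM on average in each group, changed by -4.22 ± 0.93. It lost the call without untreated 12 h replicate 2, Dox 12 h replicate 1, untreated 24 h replicate 2 or Dox 24 h replicate 2, and Col1a1 without untreated 24 h replicate 1 or Dox 24 h replicate 2. The count of 5 was 3 without Dox 24 h replicate 2. The summed level of the list, which also holds Vim and Fn1, was 15190 to 16670 CPM over the 12 h libraries and 18560 to 19290 CPM over the 24 h libraries. Untreated cells raised 10 of the 18 and cells with Dox raised 6. Among 16 cardiac genes 1 became lower, Mef2c, a factor also used by blood and endothelium, whose change of -0.42 ± 0.11 lost the call in 6 of the fits without 1 library.

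Most of the remaining lists had no called change. Of 19 G1/S genes 0 and of 18 G2/M genes 1 (Mki67, -0.34 ± 0.09) were called on the change by edgeR, and 0 and 2 had an unadjusted p under 0.05, although time lowered 15 and 15 of them without Dox and 16 and 17 with Dox. The call of Mki67 ended without untreated 12 h replicate 2, Dox 12 h replicate 1, untreated 24 h replicate 2 or either Dox 24 h library. Of 11 Wnt target, 17 immediate early, 15 p53 target and 19 ribosomal protein genes on the lists 0 were called by edgeR, DESeq2 or limma. At an unadjusted p under 0.05 edgeR had 2, 2, 6 and 2 of these, against 1645 of all 15347 tested genes. Rpl23, a ribosomal protein gene outside that list, changed by 0.33 ± 0.08 and kept the call in 1 of the 8 fits without 1 library. Of 7 mitochondrially encoded genes 1 became higher by edgeR and 0 by DESeq2 or limma, and 6 were higher at an unadjusted p under 0.05 by edgeR. Their median change was 0.28, the highest of the 29 lists. Cells with Dox raised 6 of the 7 from 12 h to 24 h and untreated cells 0, and the summed level with Dox was 14850 and 14130 CPM at 12 h and 20510 and 17170 CPM at 24 h. The called gene, mt-Co1, a subunit of cytochrome c oxidase, measured 5943 and 5941 CPM untreated and 5269 and 4660 with Dox at 12 h, then 6023 and 6157 untreated and 6952 and 6244 with Dox at 24 h (change 0.37 ± 0.09, adjusted p = 0.025). The Dox libraries at 24 h differed from each other by more than the group means did, and the call ended without untreated 12 h replicate 2, Dox 12 h replicate 2, either untreated 24 h library or Dox 24 h replicate 1. Markers of pluripotent cells, primitive streak and endoderm summed to 6.37 to 10.97, 15.45 to 20.95 and 83.96 to 117.2 CPM over the 8 libraries. Of their 8, 7 and 9 tested genes 0 were called on the change by edgeR, DESeq2 or limma, and 0 had an unadjusted p under 0.05 by edgeR.

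**Figure D4:**
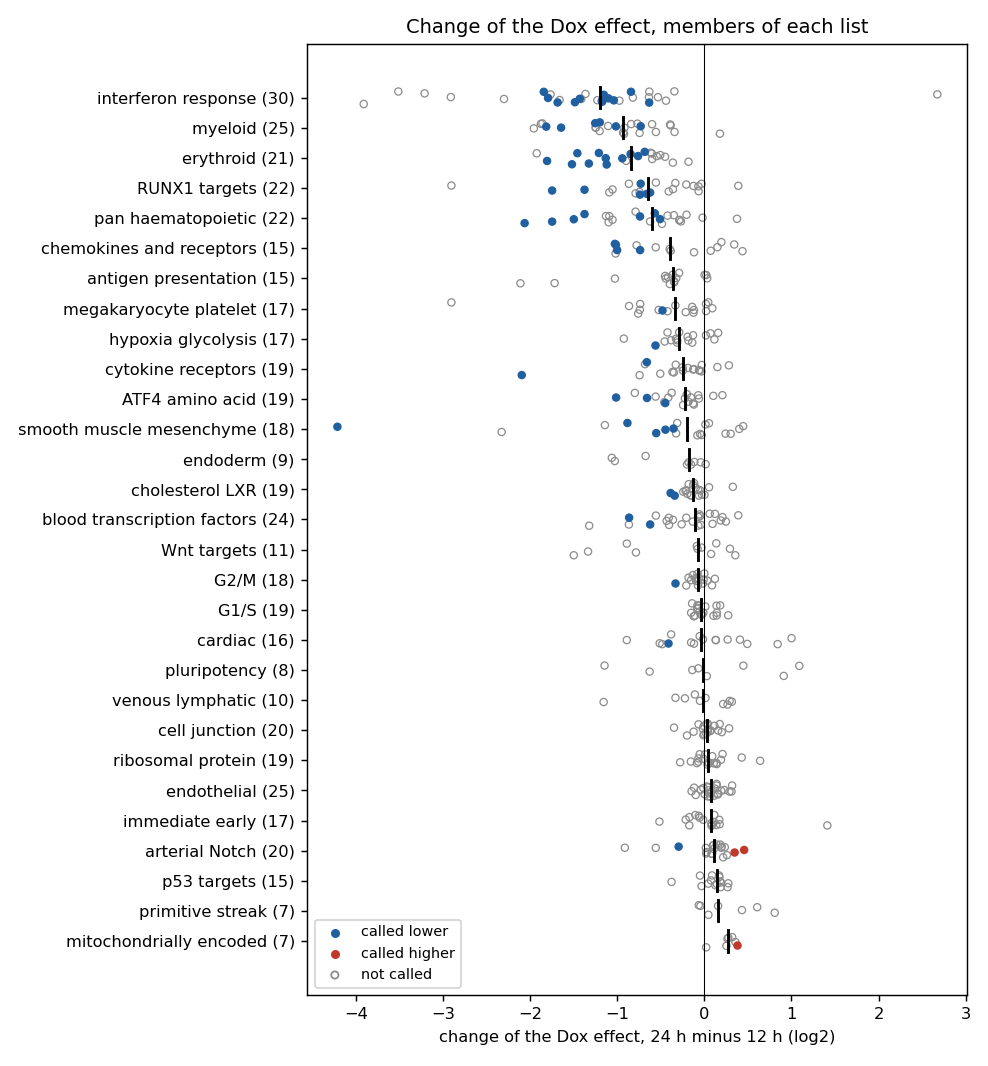
Change of the Dox effect (24 h minus 12 h, log2) for each tested member of 29 gene lists, blue where called lower, red where called higher and open grey where not called, with the median as a black bar. The 12 interferon, 11 erythroid, 7 pan-haematopoietic and 6 myeloid calls lie below 0, and the endothelial members lie close to 0 with no call.

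How many genes were called depended on single libraries, which also differed in depth. At both hours untreated replicate 2 and Dox replicate 1 were the deep libraries. The part of depth in these counts was not tested. Without untreated 12 h replicate 2 or Dox 12 h replicate 1, 78 and 73 genes were called, and without untreated 24 h replicate 1, untreated 24 h replicate 2 or Dox 24 h replicate 2, 95, 89 and 100. Without the other 3 libraries 206 to 257 were called. All 185 genes kept the sign of their change in each of the 16 alternative fits that tested them, and 38 kept their call in all 16, of which 37 were lower and 1 (Frmpd1) higher. Among the genes named by rule, those 38 include Isg15, Ifit3, Rsad2, Xaf1, Parp14, Ddx58, Itgam, Coro1a, Rac2, Hba-x, Hba-a1, Hbb-y, Alas2, Trib3, Smox, Kctd12, Ctsc and Laptm5.

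**Figure D5:**
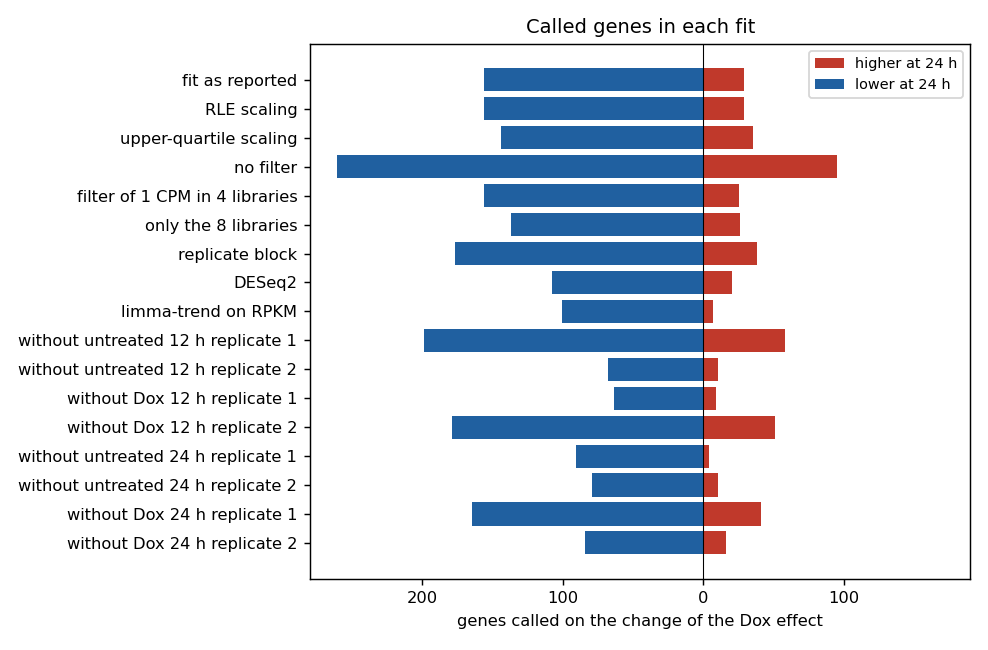
Genes called on the change of the Dox effect in the fit as reported and in 16 alternative fits, with genes lower at 24 h to the left (blue) and higher to the right (red). Lower calls outnumber higher ones in every fit, from 64 to 261 against 4 to 95.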

How the data were processed

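RNA-seq reads of mouse cells were counted per gene by the authors, and the deposited table holds raw counts. A second deposited table holds RPKM (reads scaled to gene length and library size), also made by the authors. Per the submitters' processing notes, the build was GRCm38 and the tools were edgeR 3.8.5, R 3.1.0, SAMtools 0.1.19, Bowtie2 2.21 and bcl2fastq 2.16.0.10. What counted the reads, and with which strand setting, is not given in the sources used here. Overlapping and antisense genes are therefore uncertain. Per the labels' protocols, libraries were strand-specific.

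Each group held 2 libraries. Counts of all 12 libraries entered 1 edgeR 4.0.16 quasi-likelihood fit (R 4.3.3, TMM scaling, filterByExpr), so that 6 groups shared 1 estimate of spread with 6 residual degrees of freedom, and the 4 groups of 12 h and 24 h gave the contrasts. The biological coefficient of variation was 4.71%. No value column was left out. Replicates differed by more than counting noise (chi-square per degree of freedom 2.63 to 4.61). Alternatives were other scalings, no filter or a stricter one, the 8 libraries alone, a replicate block, DESeq2 1.42.0, limma 3.58.1 on log2(RPKM + 1), and each library left out. The fit was tested on simulated data.

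The comparison and the 29 gene lists were chosen with earlier results of these data known. Genes were named by rule: Runx1, Sox7, Sox18, Sox17, Itga2b, Cdh5, Gfi1b and Gfi1; the 15 largest called changes in each direction (mean log2 CPM 1 or more); up to 6 of the smallest adjusted p per class and direction; up to 4 called members per list, with any called against the list's majority; and up to 8 steady genes. Unnamed gene models and pseudogenes were left out. Other genes are named as list members. Promoters are RefSeq's, build GRCm38.p6, matched by symbol for 10865 of the tested genes. Some genes and results are not reported here.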

Additional observations from a re-analysis of the deposited data

Results flagged for a closer look

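The Dox effect differed between the 2 hours in 156 genes where it was lower at 24 h and in 29 where it was higher, by the test of the difference itself (edgeR, adjusted over all tested genes). The values below are log2 changes of the effect for the 77 named genes among them, and 22 of these kept the call in all 16 alternative fits. Many calls end when a single library is left out. Of the genes named only here, Eif3j2 kept the call in 0 of the 8 fits without 1 library, Cltb in 1, Vgf and Myl6 in 2, Zik1 and Dph5 in 3, Bex1, Nkx1-2, Cd300lb and Slc38a5 in 4, and Slc30a10 in 5. All of these but Zik1 lost it without Dox 12 h replicate 1, and Zik1 lost it without both replicate 2 libraries of 12 h, each in turn. Cltb kept it only without Dox 12 h replicate 2.

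Interferon-inducible genes had changes as follows: Isg15 (-1.85), Xaf1 (-1.80), Ifit3 (-1.69), Parp14 (-1.49), Rsad2 (-1.43), Ddx58 (-1.18), Slfn5 (-1.18), Irgm1 (-1.15) and Rnf213 (-0.68). Leukocyte and cytokine genes with lower effects were Il10ra (-2.10), Igsf6 (-2.05), Fcer1g (-1.82), Itgam (-1.65), Cd300lb (-1.57), Ncf1 (-1.20), Cx3cr1 (-1.02), Mpo (-0.73), Ccl3 (-1.03), Ccl9 (-1.003), Ccl6 (-0.74), Rac2 (-1.75), Nckap1l (-1.50), Coro1a (-1.38), Laptm5 (-0.74), Plek (-0.51), Csf2rb (-0.66), Ikzf1 (-0.62), Ctsc (-0.88) and P2ry1 (-0.49). Erythroid genes were Hbb-bs (-1.81), Trim10 (-1.52), Hba-x (-1.46), Hba-a1 (-1.33), Hbb-y (-1.21), Alas2 (-1.12) and Klf1 (-0.87).

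Matrix, metabolic and other genes with lower effects were Col3a1 (-0.88), Postn (-0.55), Col1a2 (-0.45), Col1a1 (-0.35), Dlk1 (-0.82), Nov (-1.25), Kctd12 (-0.91), Smox (-0.99), Trib3 (-1.02), Mthfd2 (-0.45), Vldlr (-0.66), Dhcr7 (-0.39), Lss (-0.34), Ndrg1 (-0.57), Slc38a5 (-1.48), Slc30a10 (-1.48), Mki67 (-0.34), Mef2c (-0.42) and Nrp1 (-0.30). Genes with higher effects were Frmpd1 (1.40), Vgf (0.79), Nkx1-2 (0.67), Syt13 (0.64), Zik1 (0.63), Dph5 (0.58), Ctla2a (0.55), Lrp2 (0.50), Rnd2 (0.47), Cltb (0.47), Gja5 (0.46), Sat1 (0.43), Myl6 (0.41), mt-Co1 (0.37), Ptprb (0.37), Bex1 (0.37), Cd24a (0.35), Gja4 (0.35), Gcsh (0.35), Fat1 (0.33), Rpl23 (0.33) and Eif3j2 (0.32).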

How the results depend on the processing

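No named called gene changed direction in any of the 16 alternative fits, and all 185 called genes kept their sign wherever they were tested. The number called moved more. Without a filter on low counts 356 genes were called, 95 higher and 261 lower (73.3% lower, against 84.3%), of which 179 grew, 12 faded and 165 crossed 0. With limma on log2(RPKM + 1), 108 were called, 7 higher and 101 lower (93.5% lower), of which 2 faded and 27 crossed 0, and the Dox effect at 12 h was called in 365 genes against 1038. DESeq2 called 128, of which 2 faded and 47 crossed 0. RLE or upper-quartile scaling, a filter of 1 CPM in 4 libraries and a fit of the 8 libraries alone called 185, 179, 181 and 163. The cause of these differences was not tested.

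Leaving out each library in turn gave 73 to 257 called changes, 4 to 58 higher and 64 to 199 lower, of which 44 to 118 grew, 1 to 11 faded and 24 to 133 crossed 0. The Dox effect was called in 404 to 1096 genes at 12 h and in 1065 to 1722 at 24 h, the course without Dox in 2072 to 3617 and the course with Dox in 1050 to 2179. In each of these fits 1 group has a lone library, which is assumed to vary like the others.

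With the replicate number as a block 215 changes were called, 38 higher and 177 lower, including all 185. The other block counts were 1071 and 1722 genes for Dox at 12 h and 24 h, and 3427 and 2140 for the courses without and with Dox. Replicate deviations of same-numbered libraries correlated at -0.085 to 0.167 between the groups over 12496 genes. Counting noise also lowers such values, so they cannot tell whether same-numbered libraries were made together.

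Each group had 2 libraries, with 6 residual degrees of freedom before spread was shared across genes. A change that missed the threshold is therefore not shown to be absent. In promoters, dropping the 50 bases after the start lowered the share of the interferon list with the repeated GAAA element from 44 to 32%.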

Other observations

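Interferon-inducible genes outside the list and the naming rule were found among the 185 after their values were seen, so they are values with no test of their own beyond the call. Helz2, a helicase, measured 16.9 and 15.05 CPM untreated and 14.6 and 13.9 with Dox at 12 h. At 24 h it measured 38.1 and 41.75 CPM untreated and 19.6 and 21.5 with Dox, a change of -0.83 that kept its call in all 16 alternative fits. The guanylate-binding protein genes Gbp7, Gbp2 and Gbp5 changed by -0.96, -0.90 and -0.76, and Gbp5 lost the call without untreated 12 h replicate 2, Dox 12 h replicate 1 or untreated 24 h replicate 2. Igtp and Irgm2, immunity GTPases, changed by -1.17 and -1.01. Both lost the call without untreated 12 h replicate 2 or Dox 12 h replicate 1, and Igtp also without either untreated 24 h library or Dox 24 h replicate 1. These families are similar copies, so reads may be shared.

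Another 4 of the 185 genes, Adamts2, Col6a3, Lox and Cd28, were likewise chosen after their values were seen. Adamts2, which trims procollagens, measured 33.5 and 27.5 CPM untreated and 35.7 and 31.1 with Dox at 12 h, then 64.5 and 57.2 CPM untreated and 41.5 and 38.4 with Dox at 24 h. Its change of -0.76 lost the call without untreated 12 h replicate 2. Col6a3, a collagen chain, changed by -1.29 and the crosslinking enzyme Lox by -1.20, and both lost the call without untreated 12 h replicate 2, Dox 12 h replicate 1 or untreated 24 h replicate 2. Cd28, a T cell co-stimulatory receptor, measured 6.41 and 6.27 CPM untreated and 4.16 and 3.59 with Dox at 12 h. At 24 h it measured 22.8 and 23.97 CPM untreated and 5.71 and 6.60 with Dox, a change of -1.27 that lost the call without Dox 12 h replicate 1.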
